A study of Mus musculus with 12 samples.

Results

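The genes described here are the interleukin 1 (IL-1) family cytokines Il1a, Il1b, Il18 and Il33, the IL-1 receptor antagonist Il1rn, the receptors Il1r1, Il1r2, Il1rl1 and Il1rap, and the processing enzyme Casp1. They were taken by symbol, through every probe set that the array annotation pairs with that single gene. This gave 16 probe sets for 9 of the 10 genes (5 for Il1rap, 3 for Il1rn, 2 for Il1r1 and 1 for each of the others), out of 18193 genes measured in all. Il1rl1, the receptor of IL-33, was not analysed here. The family was picked with values of these same arrays already known, Il33 among them, so its values are given as a description. No p-value is printed for these genes. Whether a member passed the threshold set out below is likewise given as a description only.

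IL-1 alpha and IL-1 beta are inflammatory cytokines that act through one receptor, Il1r1, together with the accessory protein Il1rap. The antagonist encoded by Il1rn occupies that receptor without signalling, and Il1r2 is a decoy that binds ligand but passes no signal on. Pro-IL-1 beta and pro-IL-18 are cut to their active forms by caspase-1 in inflammasomes. IL-33 is a nuclear cytokine released from damaged cells, and in brain it is known from astrocytes and oligodendrocytes, while IL-1 alpha and IL-1 beta are mainly products of microglia and other myeloid cells.

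RNA was measured on 12 one-colour Affymetrix mouse arrays, 3 in each of 4 groups. In every group eGFP-expressing astrocytes cultured from C57Bl/6j mice were kept for 22 h on a mouse brain section and then trypsinised and picked off by suction. The neonatal groups held cells from mice of 3 days per the sample labels (2 days per the protocol), on sections of wild-type (WT) or of APdE9 mice. The adult groups held cells from mice of 6 to 8 weeks on the same pair of sections. APdE9 mice carry a chimeric mouse/human APPSwe transgene and a PS1-dE9 transgene, each under a mouse prion protein promoter, and the WT sections came from their littermates. So the transgenes were in the section, and the astrocytes of all 4 groups lacked them. Percoll was used to isolate the adult cells, whose DMEM/F12 medium held a G5 supplement, and neonatal cells in DMEM had neither, so age, isolation and medium cannot be told apart. Samples were pooled (n = 3) before RNA isolation, and tests measure how far such pools differ from each other, which can be technical.

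Values are log2 signals, centred before deposition so that each probe set has a median of 0. A value of 0 thus stands for the middle of the 12 arrays, and neither the level of a gene nor its level against another gene can be read. For the same reason the presence of astrocyte markers could not be checked, only their differences. Errors of differences are standard errors (SE) of the limma fit with 3 arrays per group. A gene is called where its Benjamini-Hochberg adjusted p over all 18193 genes is under 0.05. One array stood apart: neonatal WT replicate 2 had the middle value of its group of 3 for 50.3% of genes, against 22.9% to 39.97% for the remaining arrays. Most gene differences that used it directly are therefore given with and without it. Other values and counts, those of the marker lists among them, include it unless stated.

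Il1a and Il1b lie on chromosome 2, with windows that start at bases 129309923 and 129371090. Il1rn is on the same chromosome but far from both, with windows that start between bases 24336610 and 24345121. Il1a and Il1b were high in neonatal and low in adult arrays, whereas Il33, on chromosome 19, followed another course. The stretches of 250 bases before a start site of Il1a, Il1b and Il33 are shown because they share a TATA box, TATAAA, close to the start. It is in capitals, and it begins 32 bases before the start in Il1a, 31 in Il1b and 29 at the downstream of 2 listed starts of Il33. The sequences are from RefSeq on GRCm38.p6, at chr2:129309973-129310222 and chr2:129371140-129371389 on the minus strand, and at chr19:29945540-29945789 on the plus strand.
Il1a: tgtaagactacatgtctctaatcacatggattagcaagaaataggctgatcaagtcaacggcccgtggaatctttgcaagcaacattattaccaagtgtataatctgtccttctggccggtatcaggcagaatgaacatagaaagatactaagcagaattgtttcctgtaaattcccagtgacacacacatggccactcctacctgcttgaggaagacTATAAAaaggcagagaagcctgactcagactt
Il1b: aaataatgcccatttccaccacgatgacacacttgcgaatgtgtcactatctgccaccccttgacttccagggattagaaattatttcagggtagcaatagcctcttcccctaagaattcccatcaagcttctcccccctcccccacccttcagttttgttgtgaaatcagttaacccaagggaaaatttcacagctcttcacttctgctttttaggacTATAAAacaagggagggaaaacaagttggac
Il33: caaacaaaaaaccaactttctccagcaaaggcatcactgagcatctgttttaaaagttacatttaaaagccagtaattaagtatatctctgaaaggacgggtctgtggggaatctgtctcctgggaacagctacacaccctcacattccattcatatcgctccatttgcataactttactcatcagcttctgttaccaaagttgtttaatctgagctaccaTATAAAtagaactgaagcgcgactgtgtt

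RefSeq windows were found for all 10 genes, 15 windows in all, with 3 for Il1rn and 2 each for Il33, Il1r1 and Il1rl1. Windows of the same gene are not independent of each other. TATAAA on the gene's own strand with its first base 20 to 40 bases before the start was in 3 of these 15 windows, those printed, and in 1.99% of the 32851 mouse windows of the same length. Searched on both strands over the 250 bases, TATAAA was in 5 of 15 member windows and 12.4% of all windows, and the C/EBP-type motif TTNNGNAA in 10 of 15 and 36.8%. The C/EBP-type windows were those of Il1r1, Il1rl1, Il1rn, Il1a, Il1b and Il33. They include 2 overlapping windows of Il1rn that hold the same match, which is thus counted in both. The NF-kB-type motif, GGG and TTCC with 3 free bases between, was found in 2 windows, of Il1r1 and Il1rn, and in 4.65% of all. The AP-1-type motif TGANTCA was also found in 2, of Il1rn and Il1a, and in 6.75% of all. The myeloid PU box GAGGAAGT and the interferon-type motif, GAAA repeated after 2 free bases, were in 0 of 15 member windows and in 2.44% and 2.98% of all windows. In Il1r1 the NF-kB-type match overlaps a C/EBP-type match. These are matches of letters only.

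Il1a and Il1b, the alarm cytokines, were far higher in neonatal than in adult cells. The centred log2 values of Il1a were 3.17, 2.90 and 0.95 in neonatal WT replicates 1, 2 and 3, and 3.87, 3.33 and 1.63 in neonatal APdE9. They were -2.01, -1.83 and -2.26 in adult WT and -1.17, -0.95 and -1.23 in adult APdE9. All 6 neonatal arrays lay above all 6 adult arrays. On WT sections Il1a was lower in adult cells by a log2 difference of -4.37 ± 0.57, a 20.7-fold lower signal, and on APdE9 sections the difference was -4.06 ± 0.57, or 16.7-fold. Both were called, and without neonatal WT replicate 2 the first was -4.09 ± 0.64.

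For Il1b the values were 3.36, 2.78 and 1.29 in neonatal WT, 3.01, 2.64 and 1.01 in neonatal APdE9, -1.56, -1.86 and -1.22 in adult WT, and -1.01, -1.30 and -1.18 in adult APdE9. Again no neonatal array overlapped an adult one. The difference of adult from neonatal cells was -4.02 ± 0.52 on WT sections, 16.3-fold, and -3.38 ± 0.52 on APdE9 sections, 10.4-fold. Both were called, the first also without neonatal WT replicate 2 (-3.87 ± 0.60). The neonatal arrays numbered 3 were the lowest for both cytokines on both sections, well below the arrays numbered 1 and 2, and the spread within neonatal groups was accordingly wide (SD 1.21 and 1.17 for Il1a, 1.07 and 1.06 for Il1b). The inflammasome sensor gene Nlrp3 and the chemokine gene Cxcl1 were lowest in the same 2 arrays among the neonatal ones.

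**Figure D1:**
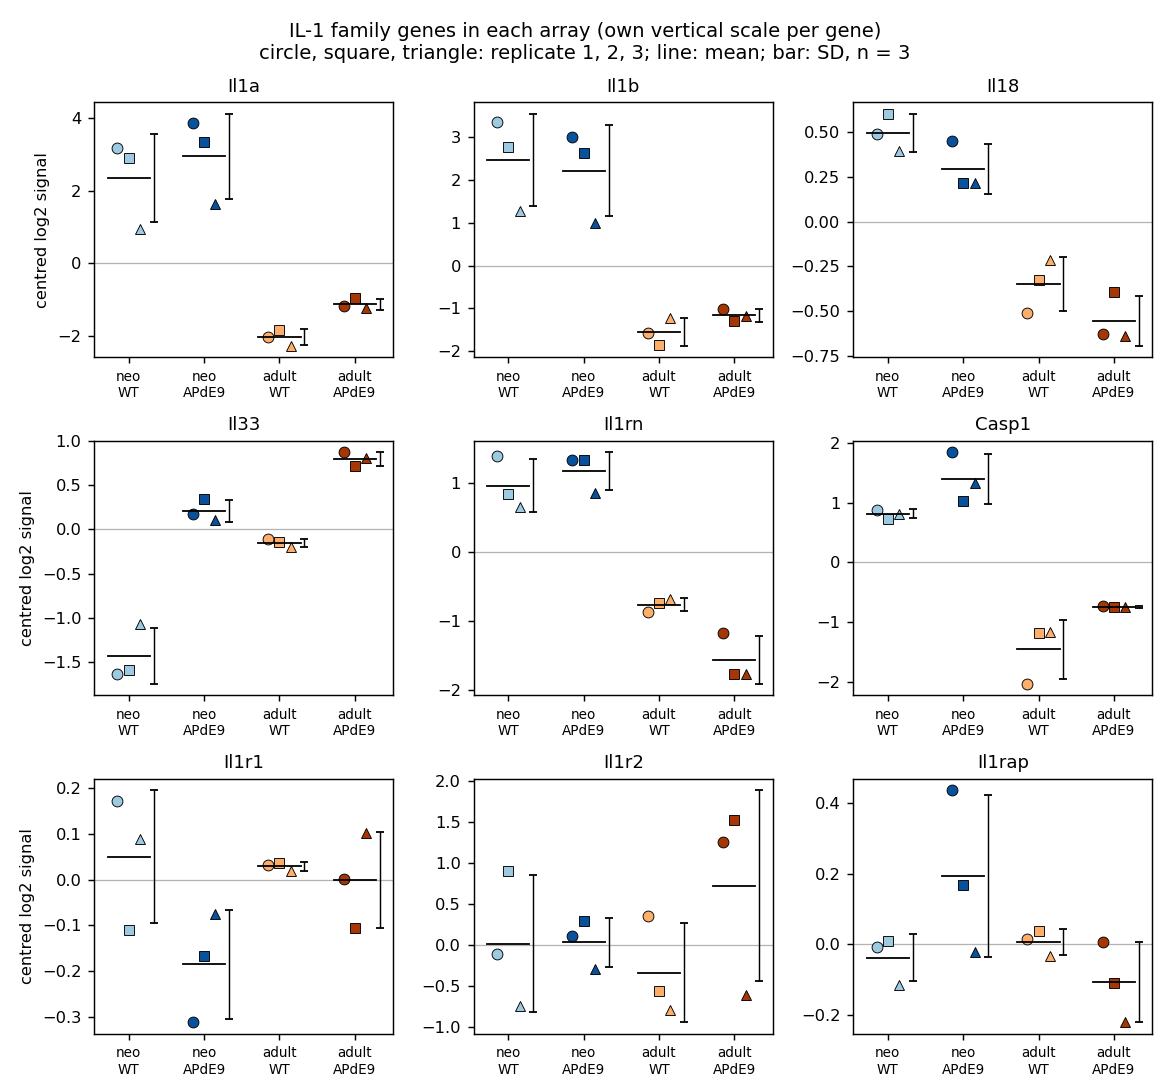
Centred log2 signal (vertical axis, its own scale for each gene) of the 9 measured IL-1 family genes in the 12 arrays by group, with circle, square and triangle for replicates 1, 2 and 3, a line at the group mean and a bar of ±1 SD (n = 3). Il1a, Il1b, Il18, Il1rn and Casp1 lie higher in all neonatal than in all adult arrays, Il33 lies higher on APdE9 than on WT sections at both ages, and the arrays of the receptors overlap.

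Between sections neither Il1a nor Il1b was called at either age. In neonatal cells the APdE9 minus WT difference was 0.60 ± 0.57 for Il1a and -0.26 ± 0.52 for Il1b, and the arrays of the groups overlapped. Taken between arrays of the same number, Il1a was higher on APdE9 sections in all 3 pairs, by 0.70, 0.42 and 0.68, and Il1b was lower in all 3, at -0.35, -0.15 and -0.28. Blocked by replicate number, the differences were 0.60 ± 0.38 and -0.26 ± 0.42, also not called, and they were 0.88 ± 0.64 and -0.11 ± 0.60 without neonatal WT replicate 2. In adult cells the Il1b difference was 0.38 ± 0.52, also with overlap. The adult arrays of Il1a, however, did not overlap between sections, the lowest on APdE9 being -1.23 and the highest on WT -1.83. That difference, 0.91 ± 0.57, was not called, since the fit shares 1 estimate of spread between all groups and the neonatal spread of Il1a was wide. Fitted on the 6 adult arrays alone, it was 0.91 ± 0.13 and called, and without the arrays numbered 3 it was 0.85 ± 0.19 and called.

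Il18, whose product needs caspase-1 to mature, had a smaller difference in the same direction. Its values were 0.49, 0.60 and 0.39 in neonatal WT, 0.45, 0.21 and 0.22 in neonatal APdE9, -0.51, -0.33 and -0.21 in adult WT and -0.63, -0.39 and -0.64 in adult APdE9. Neonatal arrays all lay above adult ones. Adult cells were lower by -0.84 ± 0.11 on WT sections (-0.79 ± 0.12 without neonatal WT replicate 2) and by -0.85 ± 0.11 on APdE9 sections, 1.79-fold and 1.80-fold, both called. Between sections Il18 differed by -0.20 ± 0.11 at either age, with overlapping arrays and no call (-0.15 ± 0.12 in neonatal cells without neonatal WT replicate 2). With array weights, which gave neonatal WT replicate 2 a weight of 7.65 against 0.557 to 1.48 for the others, the neonatal difference was -0.31 ± 0.09 and was called.

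Il33 was the only one of the 9 genes called between sections at both ages. The values were -1.64, -1.59 and -1.07 in neonatal WT, 0.18, 0.34 and 0.11 in neonatal APdE9, -0.11, -0.15 and -0.20 in adult WT and 0.87, 0.72 and 0.80 in adult APdE9. The 4 groups stood in the order neonatal WT, adult WT, neonatal APdE9 and adult APdE9 from low to high, and no neighbours in that order overlapped. On APdE9 sections Il33 was higher by 1.64 ± 0.13 in neonatal cells, 3.12-fold, and by 0.95 ± 0.13 in adult cells, 1.93-fold. Both were called, and the neonatal value was 1.56 ± 0.15 without neonatal WT replicate 2. Il33 also ran against the other cytokines with age: adult cells were higher by 1.28 ± 0.13 on WT sections (1.20 ± 0.15 without neonatal WT replicate 2) and by 0.59 ± 0.13 on APdE9 sections, both called. The latter call was lost without the 4 arrays numbered 1 (0.54 ± 0.17).

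The section difference of Il33 was smaller in adult than in neonatal cells by -0.69 ± 0.19, which was called, but single arrays decided the call. Over the 12 fits that each left out 1 array the value ran from -0.87 to -0.58, and it stayed called only without neonatal WT replicate 3, neonatal APdE9 replicate 3 or adult APdE9 replicate 1. Without neonatal WT replicate 2 it was -0.61 ± 0.20. It was -0.58 ± 0.18, -0.71 ± 0.21 and -0.62 ± 0.20 without neonatal WT replicate 1, neonatal APdE9 replicate 1 and neonatal APdE9 replicate 2. For the adult arrays it was -0.67 ± 0.21, -0.69 ± 0.21 and -0.72 ± 0.21 without WT replicates 1, 2 and 3, and -0.65 ± 0.20 and -0.69 ± 0.21 without APdE9 replicates 2 and 3. The direction was the same in all 12 fits.

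Mbp, a myelin gene, also separated the sections at both ages, as Il33 did. By age its mean ran the other way. It was -1.13 in adult against -0.69 in neonatal cells on WT sections, and 0.65 against 1.11 on APdE9 sections. Mbp arrays of the ages overlapped on both sections. Its values were -0.98, -0.51 and -0.58 in neonatal WT, 1.55, 1.03 and 0.75 in neonatal APdE9, -0.93, -1.28 and -1.18 in adult WT and 0.40, 0.81 and 0.73 in adult APdE9. Over the list of 9 measured oligodendrocyte markers, 2 were higher and 1 lower on APdE9 sections in neonatal cells (median -0.07). In adult cells 4 were higher and 0 lower (median 0.20), with 5 and 0 at an unadjusted p under 0.05 (limma). The called markers were 33.3% and 44.4% of the list, against 3.76% and 17.7% of all genes. The mean of the list, which includes Mbp, ran from -0.00 to 0.09 in neonatal WT and 0.15 to 0.26 in neonatal APdE9. It ran from -0.31 to -0.24 in adult WT and 0.12 to 0.24 in adult APdE9. In neonatal cells the higher mean was not shared over the list, whose median difference was -0.07. The part of oligodendrocyte RNA in the Il33 difference was not tested. In pooled cells, fewer cells of a type and less RNA per cell cannot be told apart.

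Il1rn, the receptor antagonist, was lower in adult cells, as Il1a and Il1b were, and lower again in adult cells on APdE9 sections. The values were 1.39, 0.84 and 0.65 in neonatal WT, 1.33, 1.33 and 0.85 in neonatal APdE9, -0.87, -0.73 and -0.69 in adult WT and -1.17, -1.76 and -1.77 in adult APdE9. Adult cells were lower by -1.72 ± 0.21 on WT sections (-1.78 ± 0.24 without neonatal WT replicate 2) and by -2.73 ± 0.21 on APdE9 sections, 3.29-fold and 6.65-fold, both called. In neonatal cells the section difference was 0.21 ± 0.21 (0.15 ± 0.24 without neonatal WT replicate 2), with overlapping arrays. In adult cells Il1rn was lower on APdE9 sections by -0.80 ± 0.21, called, with all 3 APdE9 arrays below all 3 WT arrays. That call was lost without adult WT replicate 2 (-0.79 ± 0.24), adult WT replicate 3 (-0.77 ± 0.24), adult APdE9 replicate 2 (-0.71 ± 0.23) or adult APdE9 replicate 3 (-0.70 ± 0.23).

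The section difference of Il1rn in adult cells lay below that in neonatal cells by -1.01 ± 0.29, which was called. Over the fits that left out 1 array it ran from -1.23 to -0.86, and it stayed called only without neonatal WT replicate 1, neonatal APdE9 replicate 3 or adult APdE9 replicate 1. It was -0.96 ± 0.32 and -0.86 ± 0.29 without neonatal WT replicates 2 and 3, and -0.94 ± 0.32 without neonatal APdE9 replicate 1 or 2. It was between -1.07 and -0.98, each with an SE of 0.32, without any 1 of adult WT replicates 1, 2 and 3, and -0.92 ± 0.31 and -0.91 ± 0.31 without adult APdE9 replicates 2 and 3.

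The 3 probe sets of Il1rn disagreed on the adult section difference. It was -1.20 ± 0.24 for 1425663_at and -1.18 ± 0.30 for 1451798_at, but -0.03 ± 0.15 for 1423017_a_at. In adult cells 1425663_at read -0.85, -0.76 and -0.72 on WT and -1.50, -2.23 and -2.21 on APdE9, while 1423017_a_at read -0.58, -0.68 and -0.36 on WT and -0.59, -0.56 and -0.54 on APdE9. So the difference of the gene's mean rests on 2 of its 3 probe sets. The same held for the adult minus neonatal difference of the section differences. It was -1.29 ± 0.34 for 1425663_at and -1.52 ± 0.43 for 1451798_at, but -0.23 ± 0.22 for 1423017_a_at. All 3 were lower in adult than in neonatal cells, by -1.31 ± 0.15, -3.15 ± 0.24 and -3.74 ± 0.30 on APdE9 sections for 1423017_a_at, 1425663_at and 1451798_at. Il1rn has 3 listed RefSeq start sites, and which transcripts each probe set reads was not tested.

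**Figure D2:**
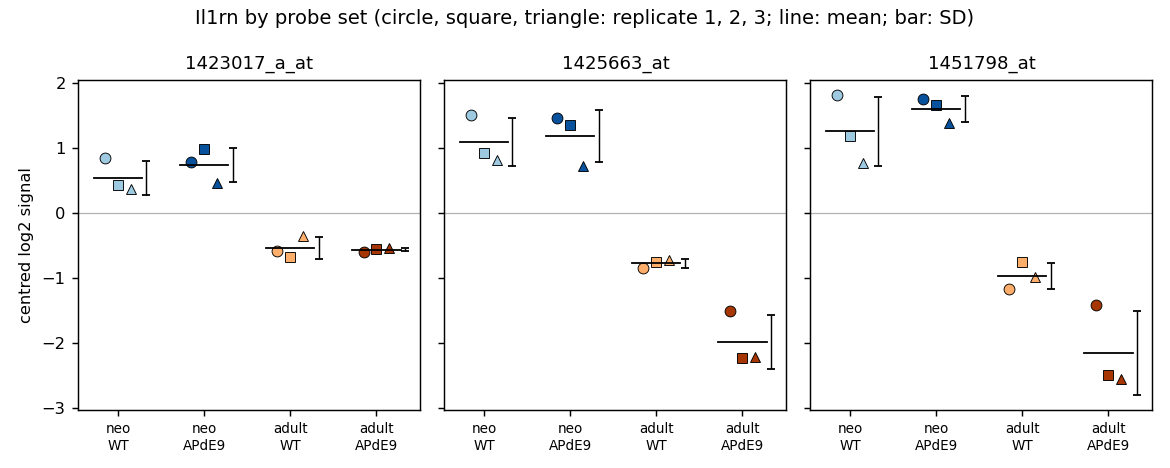
Centred log2 signal of the 3 Il1rn probe sets in the 12 arrays by group (circle, square and triangle for replicates 1, 2 and 3, a line at the mean, a bar of ±1 SD, n = 3). The adult APdE9 arrays lie below the adult WT arrays for 1425663_at and 1451798_at, whereas for 1423017_a_at both groups lie between -0.68 and -0.36.

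The receptor genes Il1r1 and Il1rap moved little, while Il1r2 varied widely between arrays. Il1r1, the signalling receptor, lay between -0.31 and 0.17 in all 12 arrays, and its 4 group means spanned 0.24. Its lowest array was neonatal APdE9 replicate 1 and its highest neonatal WT replicate 1. The section difference was -0.24 ± 0.09 in neonatal cells (-0.32 ± 0.10 without neonatal WT replicate 2) and -0.03 ± 0.09 in adult cells, and no difference of Il1r1 was called. Its 2 probe sets gave -0.45 ± 0.17 (1448950_at) and -0.02 ± 0.08 (1459777_at) in neonatal cells.

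Il1rap, the shared accessory chain of the receptors for IL-1 and IL-33, had group means that spanned 0.30 and overlapping neighbours. Its section difference was 0.23 ± 0.11 in neonatal (0.26 ± 0.13 without neonatal WT replicate 2) and -0.11 ± 0.11 in adult cells, not called. On APdE9 sections adult cells were at -0.30 ± 0.11 against neonatal cells, not called, and called in the fit blocked by replicate number (-0.30 ± 0.09) and without neonatal APdE9 replicate 3 (-0.41 ± 0.10). Its 5 probe sets disagreed on that difference. It was -0.87 ± 0.23 for 1449585_at, -0.35 ± 0.22 for 1421844_at and -0.35 ± 0.16 for 1439697_at. For 1421843_at it was -0.02 ± 0.16 and for 1442614_at 0.08 ± 0.11.

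Il1r2, the decoy receptor, was the most variable receptor. It read -0.11, 0.91 and -0.74 in neonatal WT, 0.11, 0.29 and -0.29 in neonatal APdE9, 0.35, -0.56 and -0.79 in adult WT, and 1.26, 1.52 and -0.61 in adult APdE9. Adult APdE9 replicates 1 and 2 were the highest of all arrays and replicate 3 among the lowest. The adult section difference of 1.06 ± 0.53 was not called. It was called without adult APdE9 replicate 3 (1.73 ± 0.42) and without all arrays numbered 3 (1.50 ± 0.35). The age difference on APdE9 sections, 0.69 ± 0.53 and not called, was likewise called without adult APdE9 replicate 3 (1.35 ± 0.42).

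Casp1, the enzyme that matures IL-1 beta and IL-18, was higher in neonatal cells and, within each age, higher on APdE9 sections. Its values were 0.89, 0.73 and 0.82 in neonatal WT, 1.85, 1.02 and 1.33 in neonatal APdE9, -2.03, -1.18 and -1.16 in adult WT and -0.73, -0.75 and -0.75 in adult APdE9. No groups overlapped. Adult cells were lower by -2.27 ± 0.23 on WT sections (-2.31 ± 0.26 without neonatal WT replicate 2), 4.83-fold, and by -2.15 ± 0.23 on APdE9 sections, 4.44-fold, both called.

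The section difference of Casp1 was 0.59 ± 0.23 in neonatal cells, not called (0.55 ± 0.26 without neonatal WT replicate 2), and 0.71 ± 0.23 in adult cells, called. The difference between those was 0.12 ± 0.32, with a 95% interval from -0.58 to 0.82, and was not called. Without neonatal WT replicate 2 it was 0.16 ± 0.36, also not called. The adult call was near the threshold: it held only in the fits without neonatal APdE9 replicate 1, neonatal APdE9 replicate 2, adult WT replicate 2 or adult WT replicate 3. Without adult WT replicate 1, the lowest array of the 12, the value was 0.42 ± 0.18. Without any 1 of the neonatal WT arrays or neonatal APdE9 replicate 3 it stayed at 0.71, with an SE between 0.23 and 0.24, and without adult APdE9 replicates 1, 2 and 3 it was 0.71 ± 0.26, 0.71 ± 0.27 and 0.71 ± 0.26. It was also not called with array medians subtracted (0.69 ± 0.23), on the adult arrays alone (0.71 ± 0.22), with the robust variance (0.71 ± 0.23), or without all arrays numbered 2 (0.85 ± 0.28) or 3 (0.86 ± 0.30).

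**Figure D3:**
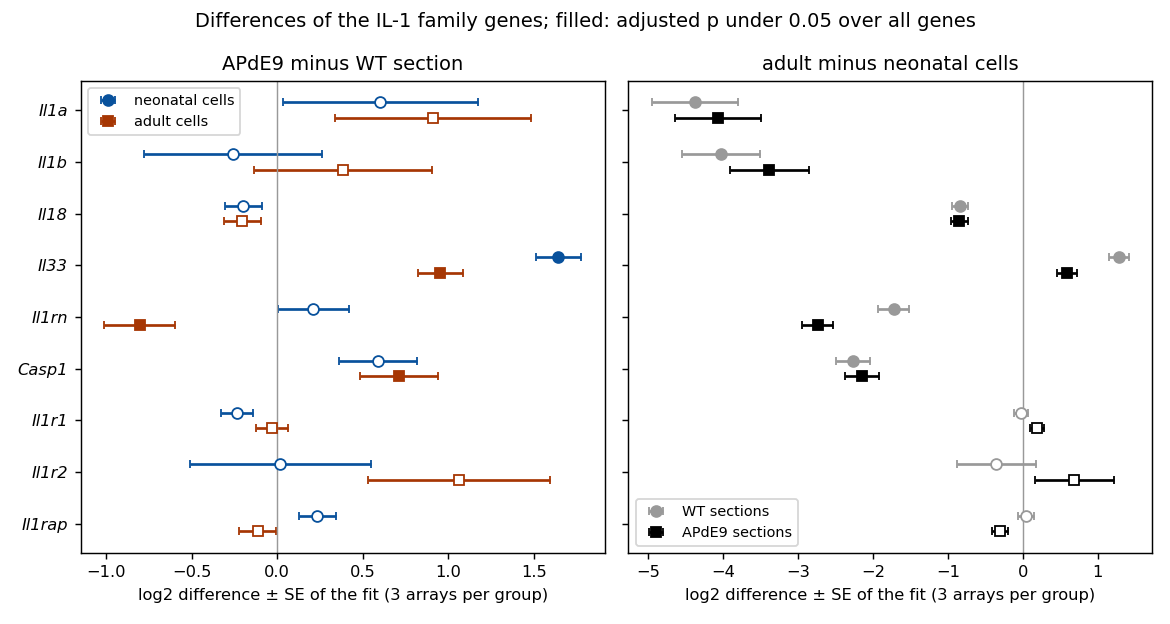
Log2 differences (horizontal axis) with SE of the fit for the 9 IL-1 family genes, APdE9 minus WT section on the left (circles neonatal, squares adult cells) and adult minus neonatal cells on the right (circles WT, squares APdE9 sections), filled where called. Il33 is filled and right of 0 in all 4 comparisons shown, while Il1a, Il1b, Il18, Il1rn and Casp1 lie left of 0 by age.

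In counts over the family, 1 of 9 genes (Il33) was called between sections in neonatal cells, where 3.76% of all 18193 genes were called (1.21% higher and 2.55% lower). In adult cells 3 of 9 were called, Il33 and Casp1 higher and Il1rn lower, against 17.7% of all genes (8.26% higher and 9.4% lower). The section difference itself differed between ages for 2 of 9, Il33 and Il1rn, both lower in adult than in neonatal cells, against 10.1% of all genes (5.19% higher and 4.88% lower). By age, 6 of 9 were called on WT sections, Il33 higher and Il1a, Il1b, Il18, Il1rn and Casp1 lower, against 30.1% of all genes (14.9% higher and 15.2% lower). The same count and directions held on APdE9 sections for these 6 genes, against 23.5% (11.7% higher and 11.9% lower). As the family was chosen with these values known, nothing is read from these shares.

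The arrays of the sections did not overlap for 2 of 9 genes in neonatal cells (Il33 and Casp1; 17.7% of all genes) and for 4 of 9 in adult cells (Il1a, Il33, Il1rn and Casp1; 36% of all genes). The arrays of the ages did not overlap for 6 of 9 genes on WT sections (42% of all genes) and for 6 of 9 on APdE9 sections (37.2%). The median difference of the 9 genes was 0.21 for the section in neonatal cells and 0.38 in adult cells, where all genes had medians of 0.00 and 0.05. By age it was -0.84 on WT and -0.85 on APdE9 sections, against 0.01 and 0.05. The comparisons share arrays, so they are not independent of each other.

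Markers of microglia moved with age as Il1a, Il1b, Il18, Il1rn and Casp1 did. Of 18 microglia markers, all measured, 16 were lower and 1 higher in adult cells on WT sections (median -3.66). On APdE9 sections 16 were lower and 0 higher (median -3.54). The called markers were 94.4% and 88.9% of the list, against 30.1% and 23.5% of all genes. The mean over the list ran from 1.24 to 1.78 in neonatal WT, 1.79 to 1.92 in neonatal APdE9, -1.90 to -1.68 in adult WT and -1.42 to -1.30 in adult APdE9. Between sections limma called 3 markers higher and 0 lower in neonatal cells (median 0.43), with 9 and 0 at an unadjusted p under 0.05. In adult cells limma called 5 higher and 1 lower (median 0.34). These were 16.7% and 33.3% of the list, against 3.76% and 17.7% of all genes. Whether any defining marker was absent in a group cannot be read from centred values. The cultures had been shaken to remove microglia, and what part microglial RNA had in the age and section differences of the cytokines was not tested.

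Some members did not wholly follow the microglia list within an age. In neonatal replicate 3 the list mean was 1.27 on WT and 1.85 on APdE9 sections. That was below replicate 1 (1.78 and 1.92), as Il1a and Il1b were. It was not below replicate 2 (1.24 and 1.79), while Il1a and Il1b were lower there than in replicate 2 on both sections. Il1rn was lower on APdE9 than on WT sections in adult cells, whereas the list mean was higher. Of 10 astrocyte markers 4 were lower and 0 higher on APdE9 sections in neonatal cells, and 5 higher and 1 lower in adult cells. By age 2 were higher and 8 lower on WT sections and 1 higher and 6 lower on APdE9 sections. Of 7 measured neutrophil markers 1 was called higher in neonatal and 2 in adult cells on APdE9 sections, with 0 lower (14.3% and 28.6%). The medians were -0.01 and 0.12. At an unadjusted p under 0.05 (limma) 1 was higher and 1 lower in neonatal cells, and 2 higher and 0 lower in adult cells. Over all genes 3.76% and 17.7% were called between sections in neonatal and adult cells, and 30.1% and 23.5% by age on WT and APdE9 sections.

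**Figure D4:**
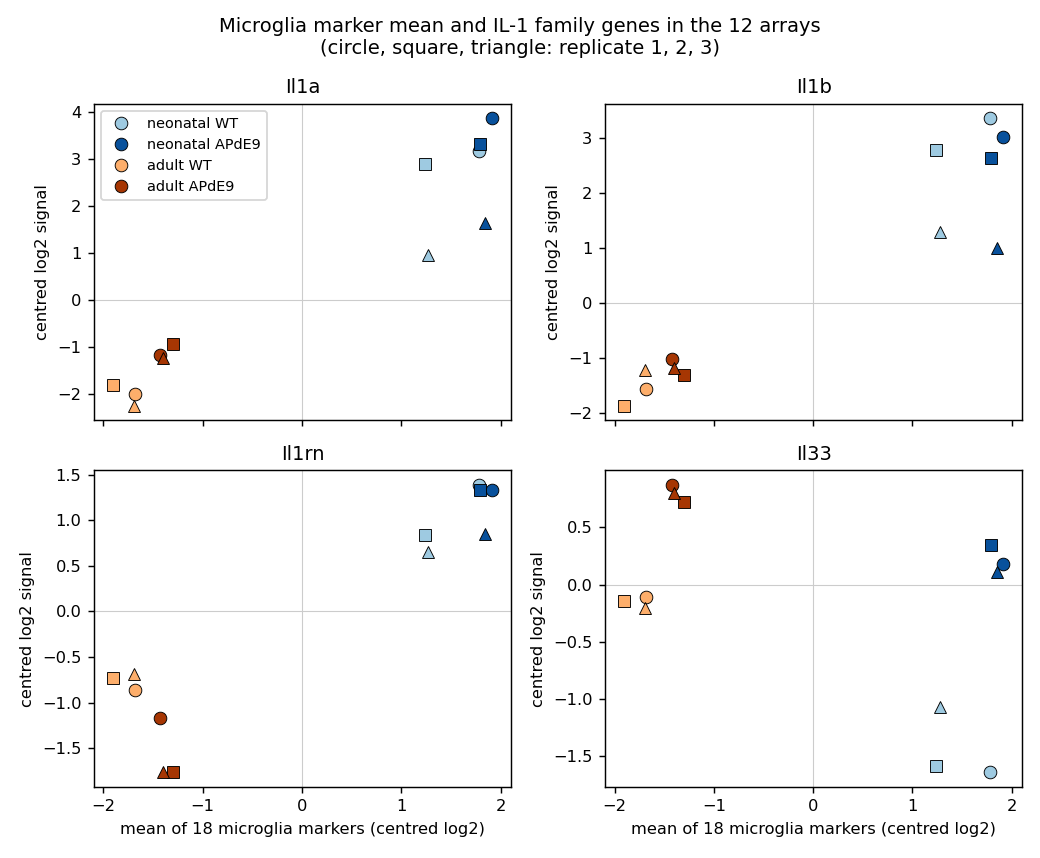
Mean centred log2 signal of 18 microglia markers (horizontal axis) against that of Il1a, Il1b, Il1rn and Il33 (vertical axis) in the 12 arrays, coloured by group, with circle, square and triangle for replicates 1, 2 and 3. Neonatal arrays lie on the right and adult arrays on the left. Within each neonatal group the triangles are lowest for Il1a and Il1b. Their marker means are below those of the circles but not below those of the squares.

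The genes whose course over the 12 arrays was most like that of Il1a were Clec4e, a myeloid C-type lectin (Pearson r = 0.990), Tlr2, a Toll-like receptor (0.984) and Plek, a platelet and leukocyte protein (0.983). For Il1b they were Clec4e (0.987), Acod1, the enzyme that makes itaconate (0.986) and Plek (0.985). For Casp1 they were Bex4 (0.987), Arhgap45 (0.985) and Mdga2 (0.984). These values are descriptions over arrays that fall into a neonatal and an adult cluster, so any gene with a like age difference scores high.

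The other genes of the pathway were taken from 4 lists, 50 of 60 listed genes being measured. In neonatal cells limma called 3 of the 50 higher on APdE9 sections and 0 lower (6%, against 3.76% of all genes). At an unadjusted p under 0.05 there were 9 higher and 0 lower. Without neonatal WT replicate 2 limma called 1 of the 50. In adult cells 8 were higher and 4 lower (24%, against 17.7% of all genes). By age 8 were higher and 17 lower on WT sections (50%, against 30.1%), and 7 higher and 14 lower on APdE9 sections (42%, against 23.5%). The medians over the 50 genes were 0.00 and 0.03 for the sections, and -0.15 and -0.11 by age.

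Among 8 other family genes, Il18bp, a soluble protein that binds and blocks IL-18, was higher on APdE9 sections in adult cells by 0.88 ± 0.11 (limma adjusted p = 0.00014), and no other of the 8 was called between sections at either age. Its values were -0.99, -0.68 and -0.88 in adult WT and 0.03, 0.09 and -0.03 in adult APdE9, so the groups were well apart. In neonatal cells Il18bp was also higher on APdE9 sections, by 0.42 ± 0.11 without overlap, but not called (limma adjusted p = 0.0587). Without neonatal WT replicate 2 that was 0.41 ± 0.13. Its section difference was not called as differing between ages (0.46 ± 0.15, limma adjusted p = 0.0826, and 0.47 ± 0.17 without neonatal WT replicate 2). By age 3 receptor genes were higher in adult cells on both sections: Il18rap, the accessory chain of the IL-18 receptor, by 1.39 ± 0.11 on WT (limma adjusted p = 7.12e-07), Il1rl2, the IL-36 receptor, by 0.84 ± 0.12 (0.000204), and Sigirr, an inhibitory receptor of the family, by 0.58 ± 0.12 (0.00258). On APdE9 sections these were 1.04, 1.06 and 0.74. Without neonatal WT replicate 2 the differences on WT sections were 1.37 ± 0.13, 0.80 ± 0.14 and 0.66 ± 0.13, all called. The receptor genes of the family on chromosome 1 lie in the order Il1r2, Il1r1, Il1rl2, Il1rl1, Il18r1 and Il18rap. Of these, Il1r1, Il1r2 and Il18r1 were not called by age. For Il18r1 the difference was 0.18 ± 0.12 on WT and -0.02 ± 0.12 on APdE9 sections. Il18bp was lower in adult cells on WT sections by -0.80 ± 0.11 (limma adjusted p = 0.000105; -0.81 ± 0.13 without neonatal WT replicate 2). On APdE9 sections it was at -0.34 ± 0.11 (limma adjusted p = 0.0397), which ran from 0.0232 to 0.133 over the 12 fits without 1 array and stayed under 0.05 only without neonatal WT replicate 1 or 3, neonatal APdE9 replicate 2 or adult WT replicate 1 or 2.

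Among 9 inflammasome and processing genes, Pycard, the adaptor that recruits caspase-1, was higher on APdE9 sections in neonatal cells by 0.45 ± 0.07 (limma adjusted p = 0.00631), with 0.16, 0.08 and 0.09 on WT and 0.57, 0.50 and 0.60 on APdE9. It was 0.43 ± 0.09 (limma adjusted p = 0.0395) without neonatal WT replicate 2. Pycard was also higher on APdE9 sections in adult cells, by 0.23 ± 0.07 without overlap, but not called (limma adjusted p = 0.0531). Its section difference was not called as differing between ages (-0.22 ± 0.11, limma adjusted p = 0.252, and -0.20 ± 0.12 without neonatal WT replicate 2). In adult cells Casp4, which encodes caspase-11 and senses lipopolysaccharide, was higher by 0.62 ± 0.17 (limma adjusted p = 0.0253). That of Casp4 ran from 0.0114 to 0.0851 over the fits without 1 array and passed 0.05 without adult WT replicate 1 or 3 or adult APdE9 replicate 2 or 3. Gsdmd, the pore-forming protein that releases IL-1 beta, was lower by -0.56 ± 0.11 (limma adjusted p = 0.00268), with 0.24, 0.46 and 0.22 on WT and -0.37, -0.30 and -0.10 on APdE9. By age Pycard was lower in adult cells by -0.46 ± 0.07 on WT and -0.68 ± 0.07 on APdE9 sections (limma adjusted p = 0.000416 and 2.3e-05). Nek7, a kinase that NLRP3 needs, was higher by 0.49 ± 0.08 and 0.38 ± 0.08 (limma adjusted p = 0.000499 and 0.00361). On WT sections Pycard was at -0.48 ± 0.09 and Nek7 at 0.45 ± 0.09 without neonatal WT replicate 2, both called. Gsdmd was higher in adult cells on WT sections by 0.45 ± 0.11 (limma adjusted p = 0.0056), and by 0.38 ± 0.11 without neonatal WT replicate 2. On APdE9 sections it was lower by -0.39 ± 0.11 (limma adjusted p = 0.0162), not called without neonatal APdE9 replicate 3 or adult APdE9 replicate 1 or 2. The WT call was lost without all arrays numbered 2. Nlrp3 was lower on WT sections by -1.05 ± 0.29 (limma adjusted p = 0.0145), a value that ran from 0.00112 to 0.0632 and passed 0.05 without neonatal WT replicate 1 or 2 (-0.94 ± 0.33 without the latter) or adult WT replicate 2.

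Of 13 signalling genes 0 were called by limma between sections in neonatal cells, and 0 had an unadjusted p under 0.05, where 3.76% of all genes were called. In adult cells Rela, the p65 subunit of NF-kB, was higher on APdE9 sections by 0.52 ± 0.10 (limma adjusted p = 0.00269) and Ikbkg, the regulatory subunit of the IkB kinase, by 0.43 ± 0.08 (0.00214). Irak1, a kinase of the IL-1 receptor complex, was higher by 0.30 ± 0.09 (limma adjusted p = 0.0427), which ran from 0.0328 to 0.170 over the fits without 1 array and stayed under 0.05 only without neonatal WT replicate 1 or 3, adult WT replicate 3 or adult APdE9 replicate 3. By age Irak3, a brake on IL-1 receptor signalling, was lower in adult cells by -0.77 ± 0.17 on WT and -0.88 ± 0.17 on APdE9 sections (limma adjusted p = 0.00338 and 0.00173). Ikbkg was higher by 0.58 ± 0.08 and 0.99 ± 0.08 (limma adjusted p = 8.02e-05 and 1.06e-06). On WT sections Irak3 was at -0.81 ± 0.19 and Ikbkg at 0.59 ± 0.09 without neonatal WT replicate 2, both called.

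The 20 target and feedback genes did not move as one. In adult cells the acute phase genes Saa3 and Lcn2 were higher on APdE9 sections by 2.97 ± 0.26 (limma adjusted p = 8.37e-06) and 2.83 ± 0.14 (1.05e-07), and the adhesion molecule gene Vcam1 by 1.05 ± 0.08 (4.33e-06). Lcn2 read -5.72, -5.14 and -5.19 in adult WT and -2.66, -2.45 and -2.45 in adult APdE9, with no overlap. Cxcl1, a neutrophil-attracting chemokine gene, was lower by -1.87 ± 0.56 (limma adjusted p = 0.0377), Nfkbiz, an IkB family gene induced by IL-1, by -0.99 ± 0.27 (0.0237) and Birc3, an inhibitor of apoptosis, by -0.63 ± 0.20 (0.0496). Each of these lower calls depended on single arrays. The limma adjusted p of Cxcl1 ran from 0.0053 to 0.153 and passed 0.05 without neonatal APdE9 replicate 2, adult WT replicate 1 or 2 or adult APdE9 replicate 1 or 3. That of Nfkbiz ran from 0.00314 to 0.103 and passed 0.05 without adult WT replicate 2 or 3 or adult APdE9 replicate 1 or 3, and that of Birc3 ran from 0.0239 to 0.202 and stayed under 0.05 only without neonatal WT replicate 1 or 3, neonatal APdE9 replicate 3 or adult WT replicate 3.

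In neonatal cells Saa3 was higher on APdE9 sections by 1.04 ± 0.26 (limma adjusted p = 0.0434) and Vcam1 by 0.36 ± 0.08 (0.0353). The adjusted p of Saa3 ran from 0.0156 to 0.193 over the limma fits without 1 array and stayed under 0.05 only without neonatal WT replicate 1 or adult WT replicate 2 or 3. That of Vcam1 ran from 0.0242 to 0.130 and stayed under 0.05 only without neonatal WT replicate 1, adult WT replicate 1 or 2 or adult APdE9 replicate 1 or 3. Neither Saa3 (0.91 ± 0.29) nor Vcam1 (0.36 ± 0.10) was called without neonatal WT replicate 2. By age Lcn2 was lower in adult cells by -7.91 ± 0.14 on WT and -5.00 ± 0.14 on APdE9 sections (limma adjusted p = 3e-12 and 2.1e-10), and Cxcl2, another chemokine gene, by -3.21 ± 0.81 and -5.01 ± 0.81 (0.00928 and 0.000592). Ptgs2, the inducible cyclooxygenase, was the only one of the 20 called higher in adult cells, by 2.40 ± 0.35 and 2.23 ± 0.35 (limma adjusted p = 0.000204 and 0.000488). Without neonatal WT replicate 2 the differences on WT sections were -7.83 ± 0.15 for Lcn2, -3.05 ± 0.95 for Cxcl2 and 2.29 ± 0.41 for Ptgs2, all called. Il6 was lowest in adult cells on APdE9 sections, at -1.82 ± 0.61 against WT sections (limma adjusted p = 0.059, not called), and was not called in the other comparisons.

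Leaving out all 4 arrays of 1 replicate number, which leaves 2 per group, ended further limma calls. Pycard in neonatal cells was at 0.46, 0.46 and 0.41 without the arrays numbered 1, 2 and 3 (adjusted p = 0.0568, 0.197 and 0.101). In adult cells Gsdmd (-0.47, adjusted p = 0.0823) and Rela (0.50, 0.0994) were not called without those numbered 2, and Ikbkg (0.33, 0.0676) without those numbered 3. By age Nek7 on APdE9 sections was not called without number 2 or 3 (0.40 and 0.32, adjusted p = 0.062 and 0.0608), nor Cxcl2 on WT sections without number 1 (-2.88, adjusted p = 0.114).

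**Figure D5:**
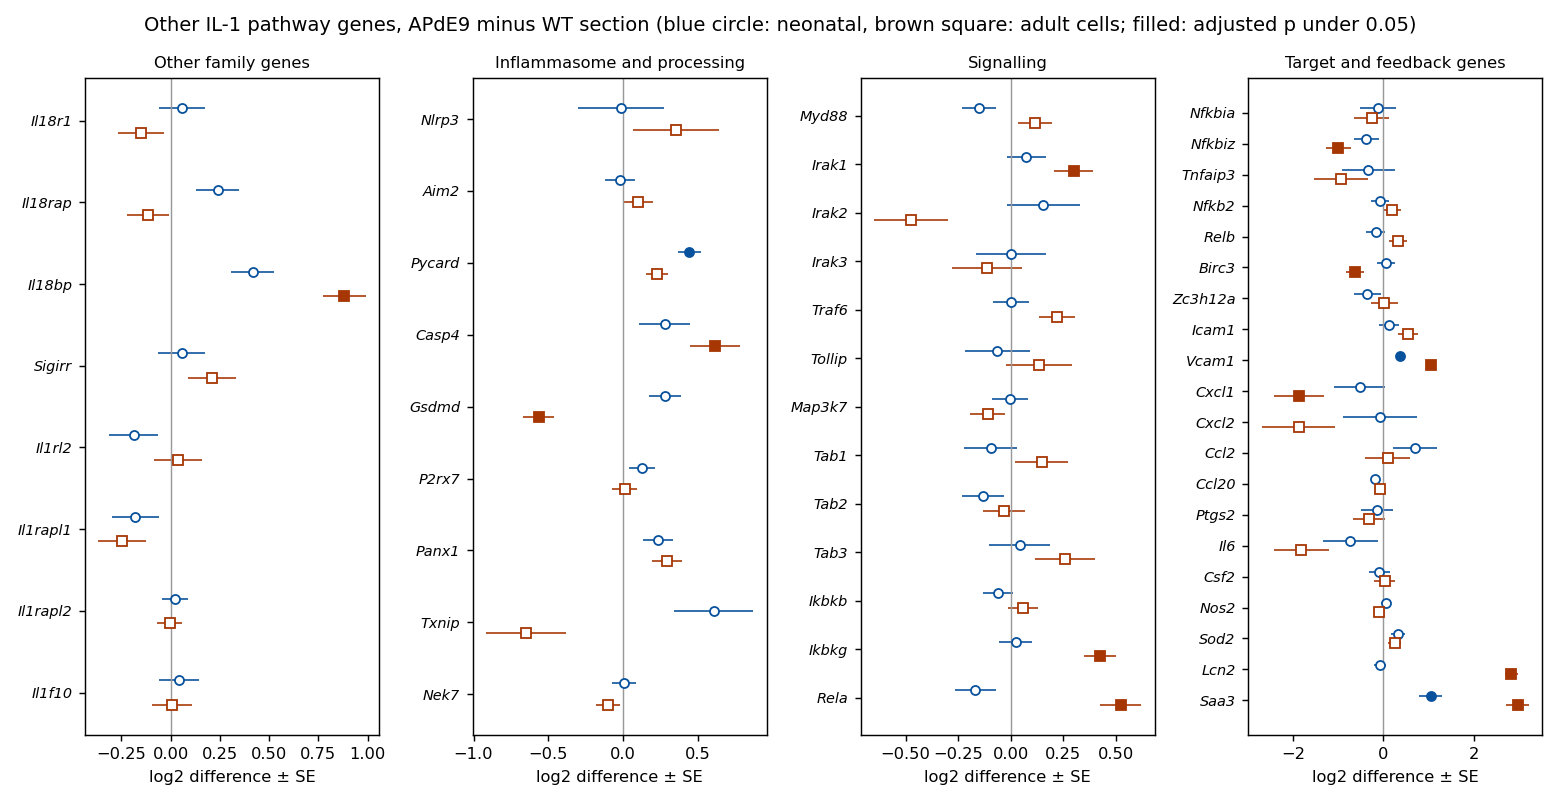
Log2 differences, APdE9 minus WT section, with SE of the fit for the 50 other IL-1 pathway genes in 4 lists (circles neonatal, squares adult cells; filled where called; own horizontal scale per list). Saa3, Lcn2 and Vcam1 stand furthest right in adult cells, Cxcl1, Nfkbiz and Birc3 lie left of 0 and filled, and most signalling genes lie near 0.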

How the data were processed

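The deposited values were RMA signals of 45101 Affymetrix probe sets on 12 arrays, per the submitters' processing notes (no version). The authors' values were taken as log2; the base is not stated in the sources used here. All 45095 complete probe sets had a median of 0 within 1e-06 over the arrays. In 4 deposited columns, recorded as a score, 6 values were whole numbers above 100 in size and were set to missing, 0 of them in members. After leaving out 64 controls, 34945 of 45037 probe sets had 1 gene in the supplied annotation (932 several, 9160 none), 34741 of them matched in RefSeq. Where a gene had several, their mean was taken.

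A model of 4 group means was fitted to all 12 arrays and 18193 genes with limma 3.58.1 in R 4.3.3 (data.table in version 1.17.8; prior degrees of freedom 3.97, residual 8), giving 5 comparisons. It was tested on simulated data. The members, lists and tests were chosen with earlier results of these data known. All members were named. From each list, up to 3 called genes with the largest rise and 3 with the largest fall were picked per comparison. Not every picked gene or comparison is described: Txnip, Map3k7, Myd88, Irak2, Ikbkb and Ccl2 were picked and left out. The 3 genes most correlated with each of the 3 members with the widest group means were also named.

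Replicate numbers come from the labels. Deviations of same-numbered arrays correlated at 0.305, 0.147 and 0.519 between sections in neonatal cells. Between ages on APdE9 sections they correlated at 0.460, 0.206 and 0.473, so pairs passed the minimum of 0.1 in both. They did not for the section in adult cells (0.348, -0.147 and 0.496) or age on WT sections (0.404, 0.0247 and 0.405). Background and detection filters need levels and were not run. The number of arrays limits the precision. Promoters were searched in Python with pandas 2.3.3, and figures drawn with matplotlib 3.10.9.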

Additional observations from a re-analysis of the deposited data

Results flagged for a closer look

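For 8 genes the section difference (APdE9 minus WT) was called as differing between adult and neonatal cells in the limma fit over all genes. These were 2 of 9 members and 6 of 50 other pathway genes (12%), where 10.1% of all 18193 genes were called. For the members the calls are a description, as they were chosen with values of these arrays known. Among the members these were Il33, whose section difference was smaller in adult cells (-0.69), and Il1rn, which was lower on APdE9 sections in adult cells and not in neonatal ones (-1.01). The Il1rn value rests on 2 of its 3 probe sets, and 1423017_a_at gave -0.23 ± 0.22. For Il33 and for Il1rn, leaving out single arrays ended the call in 9 of 12 fits.

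Among the other pathway genes the difference of the section differences was 2.91 ± 0.19 for Lcn2 (limma adjusted p = 4.74e-06), 1.92 ± 0.36 for Saa3 (0.00544), 0.69 ± 0.12 for Vcam1 (0.00291) and 0.69 ± 0.14 for Rela (0.00781), all larger in adult cells. The call of Vcam1 was lost with quantile normalization (0.40, limma adjusted p = 0.0666) and without all arrays numbered 1 (0.0574) or 2 (0.0805), and that of Rela without all arrays numbered 2 (0.215). Gsdmd was at 0.28 ± 0.11 between sections in neonatal cells (limma adjusted p = 0.208, not called), and at 0.21 ± 0.11 without neonatal WT replicate 2. In adult cells it was lower on APdE9 sections. Its difference of the section differences was -0.85 ± 0.15 (limma adjusted p = 0.00379), and without all arrays numbered 2 it was -0.72 (0.118). Without neonatal WT replicate 2 the values were 2.83 ± 0.21 for Lcn2, 2.05 ± 0.38 for Saa3, 0.69 ± 0.13 for Vcam1, 0.72 ± 0.15 for Rela and -0.77 ± 0.15 for Gsdmd, all called. For Ikbkg it was 0.40 ± 0.11 (limma adjusted p = 0.0359), and its adjusted p ran from 0.0290 to 0.0843 over the fits without 1 array, staying under 0.05 only without neonatal APdE9 replicate 1 or adult APdE9 replicate 2. No causes were tested.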

How the results depend on the processing

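Without the replicate block or any other change, 1, 3 and 2 members were called for the section in neonatal cells, in adult cells and for the difference between ages. With array weights 2 members were called in neonatal cells. At an adjusted p under 0.01 there was 1 in adult cells and 0 for the difference (3 members at an unadjusted p under 0.05), and with each probe set on its own there was 1 for the difference. Of the 50 pathway genes, 3, 12 and 6 were called in the same order. In neonatal cells this became 6 with array weights and 1 at 0.01 or with each probe set on its own. In adult cells it became 19 with the replicate block and 7 at 0.01, and for the difference 11 with array weights. The replicate block moved no other count of calls by over 1.5 times, and with it Il1r2 was called between sections in adult cells (1.06 ± 0.34), where the numbers do not pair the arrays. Leaving out 1 array, or 1 replicate number in all groups, gave 1 to 3 members in adult cells and 0 to 2 for the difference, and 0 to 3, 5 to 16 and 2 to 6 pathway genes in the same order. No value changed direction past its threshold under the alternatives run, and 6 or 7 members were called by age on leaving out 1 array. Of member values, 42 lost and 11 gained a call, 10 uncalled ones of Il18, Il1r1 and Il1r2 moved by more than the replicate spread, and 958 did neither. Quantile normalization and subtracted medians moved the median of all genes by under 0.1. The spread of 3 arrays and the missing levels limit what can be told.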
